A study of Triticum aestivum with 8 samples.

Results

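The histone genes H2A-2, H2A-3, H2A-9, wcH2B-6 and wcH2B-8 of bread wheat (Triticum aestivum) were followed in leaves of watered and droughted plants. All probe sets that the platform annotation pairs with these 5 genes, by symbol or synonym, were taken. They came to 18 of the 61179 probe sets tested, and to 5 of the 771 genes that the annotation names. H2A-9 had 6 probe sets, wcH2B-8 had 7, H2A-3 and wcH2B-6 had 2 each, and H2A-2 had 1.

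RNA was extracted from leaves of 48-day-old plants and hybridised to 8 Affymetrix arrays. Control plants of the cultivars WL711 and C306 kept their water supply, and drought plants of both had none from day 27, which makes 21 days without water at the labelled age. The 4 groups, 1 per cultivar and watering, held 2 arrays each, which the labels call biological replicates. The labels do not say how many plants went into a sample or whether replicates were grown apart. All p-values therefore measure the spread between these arrays.

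H2A and H2B are core histones that pair as dimers that sit with the H3 and H4 histones inside each nucleosome, the spool on which DNA is wound. Many plant genes for core histones are expressed mostly while DNA is replicated, so their transcripts are abundant in dividing tissue such as meristems and young leaf bases. Other genes encode variants that are made outside replication. In a whole leaf, fewer dividing cells and less histone RNA per cell cannot be told apart.

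The deposited values are log2 signals from which each probe set's median over the 8 arrays had been taken away. A value of 0 is thus the middle of that probe set's own arrays, and levels of different genes, or the presence of leaf markers, cannot be read from them. Histone genes form large families of near-identical members with copies on the 3 wheat subgenomes. Of the 18 probe sets, 9 carry the suffix _x_at, which Affymetrix gives where probes may also bind unrelated transcripts, and 2 carry _s_at, for probes shared by related transcripts. The signal of any of the 5 genes may therefore include its relatives. The 18 probe sets were designed on 13 sequence entries, 5 of which carry a pair of probe sets, so the members are not independent of each other.

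WL711 control replicate 1 had the widest spread of values, with an interquartile range of 0.483 against 0.221 to 0.302 on the other 7 arrays. The 27 hybridisation control probe sets averaged -0.72 there, -0.98 for C306 control replicate 2 and -0.91 for C306 drought replicate 1, while the remaining 5 arrays had means of 0.022 to 0.13. These arrays are named below where a histone value rests on them.

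The question for the drought comparisons was which transcripts change in the leaf when water is withheld. Of the 5 genes, H2A-9, a core H2A gene, had the largest median difference, in droughted C306. Averaged over its 6 probe sets, the centred log2 signal was 0.15 and 0.40 in watered C306 and -0.76 and -0.23 in droughted C306 (replicates 1 and 2). In WL711 it was -0.35 and -0.043 with water and 0.068 and 0.12 without. The 2 droughted C306 arrays lay below both watered C306 arrays, and the 2 droughted WL711 arrays lay above both watered WL711 arrays.

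The 6 H2A-9 probe sets shared the direction in each cultivar but not the size. In C306 all 6 differences were below 0, from -1.11 to -0.40 with a median of -0.81, while over all 61179 probe sets the median was -0.019. In WL711 all 6 were above 0, from 0.0091 to 0.66 with a median of 0.26, against a median of -0.018 over all probe sets. This shared sign rests on WL711 control replicate 1. On Ta.27657.1.S1_at it read -0.22, while WL711 control replicate 2 at 0.47 lay above both droughted WL711 arrays (0.33 and -0.065). On Ta.27657.12.S1_at and Ta.27657.14.S1_x_at it read -0.91 and -0.56, against -0.044 and -0.0056 for WL711 control replicate 2. Leaving out 1 array gave WL711 medians from 0.18 to 0.46. None passed the test in either cultivar, a Benjamini-Hochberg adjusted p under 0.05 over all 61179 probe sets in limma.

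The lowest in C306 was Ta.27657.14.S1_s_at. It read -0.32 and 0.36 in watered and -1.29 and -0.89 in droughted C306, and -0.24 and 0.25 in watered and 0.24 and 0.41 in droughted WL711. Both droughted C306 arrays lay below the other 6. The log2 difference was -1.11 in C306 (SE 0.26, unadjusted p = 0.0024, limma adjusted p = 0.259) and 0.32 in WL711 (SE 0.26, limma adjusted p = 0.618).

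Ta.27657.14.S1_x_at, designed on the same sequence entry, read 0.0056 and 0.43 in watered and -0.93 and -0.71 in droughted C306. Watered WL711 gave -0.56 and -0.0056, and droughted WL711 gave 0.11 and 0.15. Again the droughted C306 arrays were the lowest of the 8, and the groups did not overlap in either cultivar. The log2 difference was -1.04 in C306 (SE 0.22, limma adjusted p = 0.216) and 0.41 in WL711 (SE 0.22, limma adjusted p = 0.446). By moderated t it ranked 100th from the lowest in C306 among all probe sets. The pair on this entry differed by a mean of 0.239 per array.

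Ta.27657.12.S1_at, built on another entry, read 0.37 and 0.044 in watered and -1.25 and -0.43 in droughted C306, and -0.91 and -0.044 in watered and 0.20 and 0.16 in droughted WL711. WL711 control replicate 1 lay between the 2 droughted C306 arrays. The droughted arrays lay below the watered ones in C306 and above them in WL711. Its log2 difference was -1.05 in C306 (SE 0.33, limma adjusted p = 0.405) and 0.66 in WL711 (SE 0.33, limma adjusted p = 0.411). Without C306 drought replicate 1 the C306 difference was -0.64, and the median over the 6 H2A-9 probe sets was -0.47.

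The other 3 probe sets of H2A-9 differed less in C306. Ta.27657.1.S1_at stood at -0.46 (SE 0.25), Ta.27657.6.S1_x_at at -0.59 (SE 0.30) and Ta.27657.7.S1_x_at at -0.40 (SE 0.26), with limma adjusted p from 0.752 to 0.874. For Ta.27657.6.S1_x_at the groups overlapped, since C306 drought replicate 2 at 0.59 was above C306 control replicate 1 at 0.47. In WL711 the same 3 stood at 0.0091, 0.14 and 0.20.

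**Figure D1:**
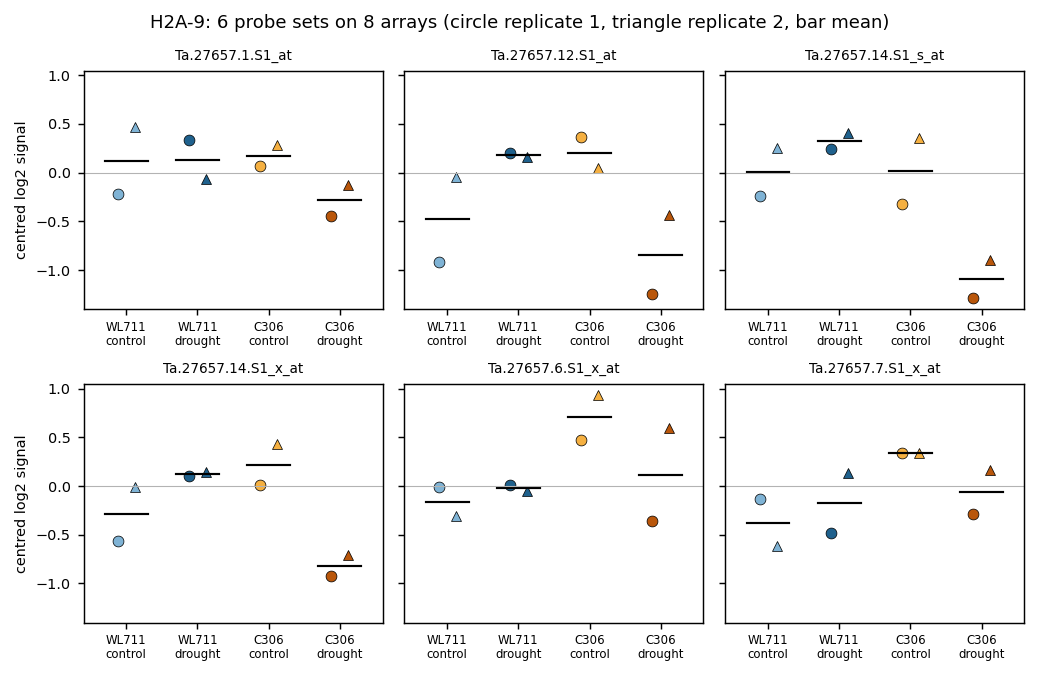
Centred log2 signal (vertical axis) of each of the 6 H2A-9 probe sets on the 8 arrays, by group (horizontal axis). Circles are replicate 1, triangles replicate 2 and bars the mean of 2 arrays. The droughted C306 arrays are the lowest pair for Ta.27657.14.S1_s_at and Ta.27657.14.S1_x_at, while Ta.27657.6.S1_x_at overlaps between watered and droughted C306.

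H2A-2 and H2A-3, also core H2A genes, showed no common response. They are close neighbours in the wheat reference gene order (IWGSC CS RefSeq v2.1), with 3 protein-coding genes between them. H2A-2, with the single probe set Ta.29542.1.S1_x_at, read -0.019 and 0.28 in watered and -0.73 and 0.052 in droughted WL711, and 0.019 and -0.093 in watered and 0.041 and -0.20 in droughted C306. Only WL711 drought replicate 1 stood far from the rest, and the groups overlapped in both cultivars. Its log2 difference was -0.47 in WL711 (SE 0.25, limma adjusted p = 0.441), or -0.078 without that array, and -0.042 in C306 (SE 0.25).

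For H2A-3 the droughted WL711 arrays lay above the watered ones on Ta.27192.1.S1_at, and the difference did not pass. It read -0.41 and -0.25 with water and -0.14 and 0.055 without, a log2 difference of 0.29 (SE 0.17, limma adjusted p = 0.494). In C306 it read 0.11 and 0.12 under control watering and -0.055 and 0.35 under drought, a log2 difference of 0.031. Ta.27192.1.S1_s_at, on the same sequence entry, varied least of the 18, between -0.15 and 0.15 over the 8 arrays. Its drought differences were 0.020 in WL711 and 0.038 in C306.

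Among the H2B genes, the median drought difference over the 7 probe sets of wcH2B-8 was -0.28 in WL711 and -0.18 in C306, and 0 of the 7 passed in either cultivar (limma). Single arrays carried much of both medians, which were -0.11 without WL711 control replicate 1 and 0.020 without C306 drought replicate 1. The most extreme in WL711 was Ta.7378.1.S1_at. It read 0.73 and 0.47 in watered and 0.058 and 0.27 in droughted WL711, which did not overlap, for a log2 difference of -0.43 (SE 0.18, unadjusted p = 0.0443, limma adjusted p = 0.352). In C306 it read -0.47 and -0.058 with water and -0.21 and -0.14 without, a log2 difference of 0.088. The highest in WL711, Ta.7378.18.S1_x_at at 0.099 (SE 0.17), was the lowest in C306 at -0.35 (SE 0.17, limma adjusted p = 0.728).

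wcH2B-6, the other H2B gene, did not pass either. Ta.27708.1.S1_at read 0.049 and 0.12 in watered and -0.036 and 0.036 in droughted WL711, and 0.21 and -0.22 in watered and -0.41 and -0.26 in droughted C306. The droughted arrays lay below the watered ones in both cultivars, by gaps smaller than the spread of the C306 control pair. The log2 difference was -0.087 in WL711 (SE 0.17) and -0.33 in C306 (SE 0.17, limma adjusted p = 0.776). Its other probe set, Ta.27708.1.S1_x_at, stood at -0.12 in WL711, where the groups overlapped, and at -0.28 in C306. Without C306 control replicate 1 the C306 median of the pair was -0.11.

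Counted together, 0 of 18 histone probe sets passed in WL711, where 0.0360% of all probe sets passed, and 0 of 18 in C306, where 0.0490% passed (limma). At an unadjusted p under 0.05 there was 1 in WL711 (5.56%, against 13.8% of all probe sets), and there were 3 in C306 (16.7%, against 7.73% in either direction and 3.64% as lower), all lower and all of H2A-9. In C306, droughted arrays lay below both watered arrays for 10 of 18 (55.6%), against 21.5% of all probe sets, and above them for 0, against 17.2%. In WL711 they lay below for 4, against 22.4% of all probe sets, and above for 3, against 21.0%. The 10 in C306 were 5 of H2A-9, both of wcH2B-6 and 3 of wcH2B-8.

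**Figure D2:**
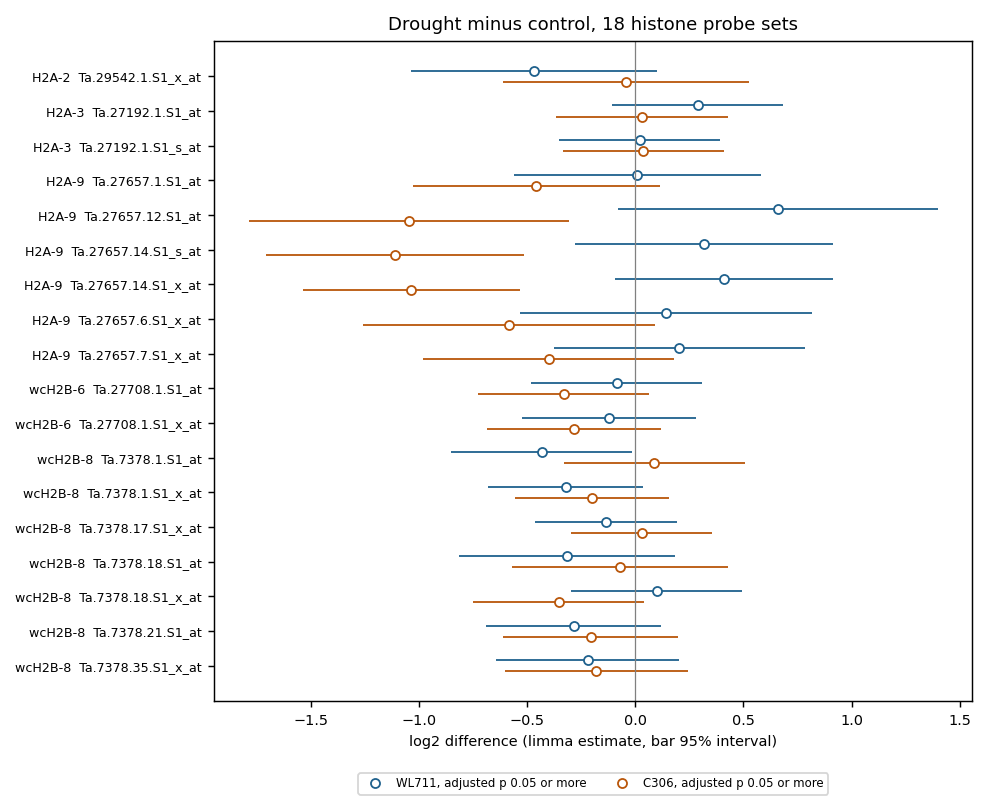
Log2 difference, drought minus control (horizontal axis), for each of the 18 histone probe sets (rows) in WL711 and C306. Points are limma estimates, bars their 95% intervals, and open points have an adjusted p of 0.05 or more. All points are open, and the 3 farthest left, between -1.11 and -1.04, are H2A-9 probe sets in C306.

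Whether the cultivars responded differently was tested as the difference of the drought effects, C306 minus WL711. For H2A-9 all 6 differences were below 0, with a median of -1.08, against 0.012 over all probe sets. The lowest were -1.71 for Ta.27657.12.S1_at (SE 0.46, 95% interval -2.75 to -0.66, limma adjusted p = 0.269), -1.45 for Ta.27657.14.S1_x_at (SE 0.31, limma adjusted p = 0.185) and -1.43 for Ta.27657.14.S1_s_at (SE 0.37, limma adjusted p = 0.256). None of the 18 passed, where 0.0409% of all probe sets did. At an unadjusted p under 0.05 these 3 of the 18 (16.7%) stood, against 9.79% of all probe sets in either direction and 5.77% as lower (limma). On 2 of the 18, Ta.27657.12.S1_at and Ta.27657.14.S1_x_at, droughted arrays lay above both watered ones in WL711 and below both in C306, as they did for 4.35% of all probe sets. The highest of H2A-9 was Ta.27657.1.S1_at at -0.47. For wcH2B-8 the differences ran from -0.45 (Ta.7378.18.S1_x_at) to 0.52 (Ta.7378.1.S1_at) with a median of 0.12. H2A-2 stood at 0.43 (SE 0.35), H2A-3 at -0.26 (Ta.27192.1.S1_at) and 0.018 (Ta.27192.1.S1_s_at), and wcH2B-6 at -0.24 (Ta.27708.1.S1_at) and -0.16 (Ta.27708.1.S1_x_at).

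The mean drought effect over both cultivars was closer to 0 for every H2A-9 probe set than its effect in C306. H2A-9 stood between -0.40 (Ta.27657.14.S1_s_at) and -0.099 (Ta.27657.7.S1_x_at), and wcH2B-8 between -0.26 (Ta.7378.1.S1_x_at) and -0.054 (Ta.7378.17.S1_x_at). H2A-2 stood at -0.26, H2A-3 at 0.16 (Ta.27192.1.S1_at) and 0.029 (Ta.27192.1.S1_s_at), and both wcH2B-6 probe sets, Ta.27708.1.S1_at and Ta.27708.1.S1_x_at, at -0.21 and -0.20. Of the 18, 16 were below 0, as were 33131 of all 61179 probe sets. The median of the 18 was -0.20 against -0.018 over all probe sets. None passed (0.00817% of all probe sets did), and 1 had an unadjusted p under 0.05, Ta.7378.1.S1_x_at of wcH2B-8 at -0.26 (limma adjusted p = 0.438), against 11.1% of all probe sets. Averaged over the 18, C306 drought replicate 1, an array with low hybridisation controls, read -0.43. C306 drought replicate 2 read -0.16, and the remaining arrays read 0.011 to 0.10. The count below 0 and the median of the 18 were not worked out without C306 drought replicate 1.

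The next comparisons asked which transcripts differ between the cultivars in watered and in droughted leaves. wcH2B-8 passed as lower in watered C306 on 2 of its 7 probe sets, and 6 of the 7 were below 0. The median over the 7 was -0.66, or -0.42 without WL711 control replicate 1. Ta.7378.1.S1_at averaged 0.60 ± 0.18 in watered WL711 and -0.26 ± 0.29 in watered C306 (SD, n = 2), a 1.82-fold difference (log2 -0.86, SE 0.18, limma adjusted p = 0.0218). Its partner on the same entry, Ta.7378.1.S1_x_at, read 0.57 and 0.49 in watered and 0.087 and 0.33 in droughted WL711, and -0.23 and -0.087 in watered and -0.46 and -0.26 in droughted C306. All 4 C306 arrays lay below all 4 WL711 arrays. The log2 difference was -0.69 under control watering (SE 0.16, limma adjusted p = 0.0276) and -0.57 under drought (SE 0.16, limma adjusted p = 0.0715).

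Ta.7378.35.S1_x_at and Ta.7378.18.S1_at of wcH2B-8 had the same order of cultivars. Ta.7378.35.S1_x_at read 0.28 and 0.57 in watered and 0.27 and 0.14 in droughted WL711, and -0.33 and -0.14 in watered and -0.62 and -0.22 in droughted C306. Its differences were -0.66 under control watering (limma adjusted p = 0.0550) and -0.62 under drought (limma adjusted p = 0.0904). Ta.7378.18.S1_at read 0.73 and 0.21 in watered and 0.23 and 0.070 in droughted WL711, and -0.11 and -0.32 in watered and -0.50 and -0.070 in droughted C306. In both, as in Ta.7378.1.S1_at, no C306 array reached the lowest WL711 array.

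The remaining wcH2B-8 probe sets differed less between cultivars. Under control watering Ta.7378.17.S1_x_at stood at -0.26 (SE 0.14), Ta.7378.21.S1_at at -0.22 (SE 0.18) and Ta.7378.18.S1_x_at at 0.078 (SE 0.17). The last of these shares its sequence entry with Ta.7378.18.S1_at, which stood at -0.68 (SE 0.22, limma adjusted p = 0.0816). That pair differed by a mean of 0.249 per array and by up to 0.574, on WL711 control replicate 1. Under drought the wcH2B-8 differences ran from -0.62 (Ta.7378.35.S1_x_at) to -0.093 (Ta.7378.17.S1_x_at).

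**Figure D3:**
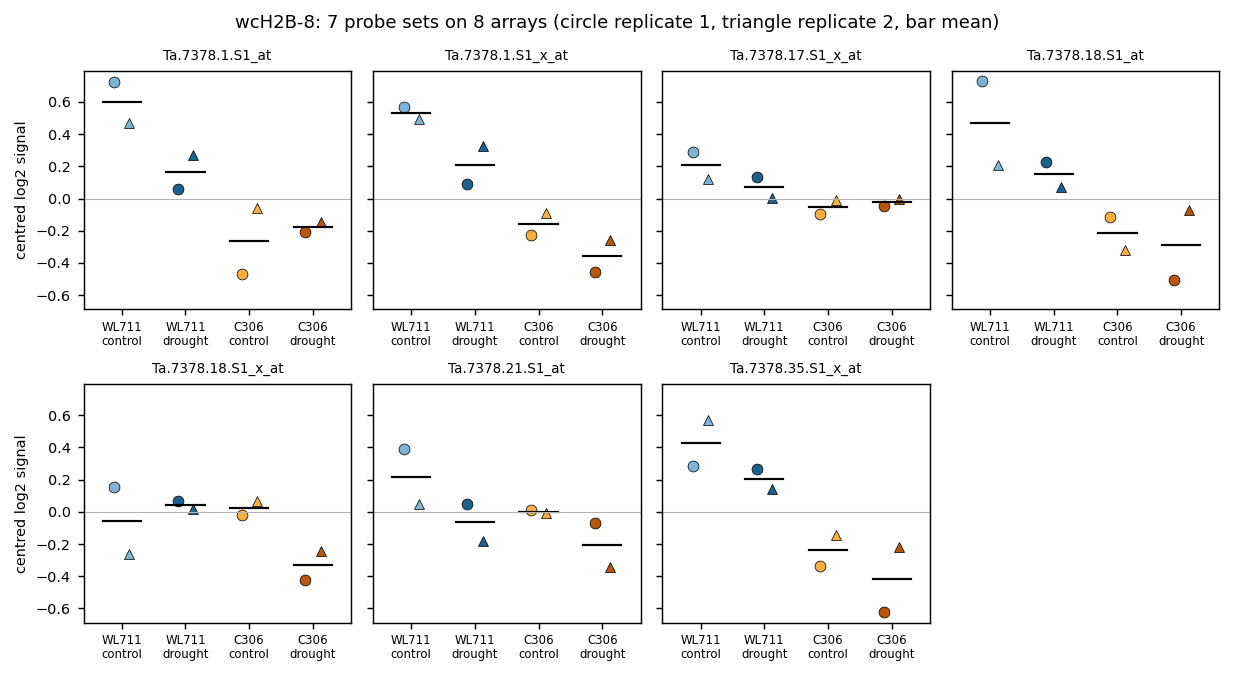
Centred log2 signal (vertical axis) of each of the 7 wcH2B-8 probe sets on the 8 arrays, by group (horizontal axis). Circles are replicate 1, triangles replicate 2 and bars the mean of 2 arrays. In 5 of the 7 panels all C306 arrays lie below all WL711 arrays, and Ta.7378.18.S1_x_at and Ta.7378.21.S1_at overlap.

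For H2A-9 in watered leaves all 6 differences between the cultivars were above 0, from 0.016 (Ta.27657.14.S1_s_at) to 0.86 with a median of 0.59 against -0.078 over all probe sets, and none passed. The highest, Ta.27657.6.S1_x_at, read -0.013 and -0.31 in watered WL711 and 0.47 and 0.94 in watered C306 (log2 difference 0.86, SE 0.30, limma adjusted p = 0.0969). Ta.27657.7.S1_x_at read -0.14 and -0.62 in watered WL711 and 0.33 on both watered C306 arrays (log2 difference 0.71, SE 0.26, limma adjusted p = 0.108). Without WL711 control replicate 1 the H2A-9 median was 0.24.

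In droughted leaves 2 H2A-9 probe sets passed as lower in C306, and 4 of the 6 were below 0. Ta.27657.14.S1_s_at averaged 0.32 ± 0.12 in droughted WL711 and -1.09 ± 0.28 in droughted C306 (SD, n = 2), a 2.67-fold difference (log2 -1.41, SE 0.26, limma adjusted p = 0.0150). Ta.27657.14.S1_x_at averaged 0.13 ± 0.028 and -0.82 ± 0.16, a 1.93-fold difference (log2 -0.94, SE 0.22, limma adjusted p = 0.0392). Both are built on 1 sequence entry. Ta.27657.12.S1_at stood at -1.02 (SE 0.33, limma adjusted p = 0.1095), Ta.27657.1.S1_at at -0.42 (SE 0.25), and Ta.27657.6.S1_x_at and Ta.27657.7.S1_x_at at 0.14 and 0.11. The median over the 6 was -0.68, or -0.44 without C306 drought replicate 1.

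H2A-2, H2A-3 and wcH2B-6 did not pass in any comparison of the cultivars. H2A-2 stood at -0.17 under control watering and 0.26 under drought (SE 0.25 in both). Ta.27192.1.S1_at of H2A-3 stood at 0.44 under control watering (SE 0.17, unadjusted p = 0.0326, limma adjusted p = 0.136), with both C306 arrays above both WL711 arrays, and at 0.19 under drought. Ta.27192.1.S1_s_at stood at 0.00090 and 0.019. wcH2B-6 (Ta.27708.1.S1_at and Ta.27708.1.S1_x_at) stood at -0.092 and -0.088 under control watering, and at -0.34 and -0.25 under drought, where both C306 arrays lay below both WL711 arrays on each probe set.

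**Figure D4:**
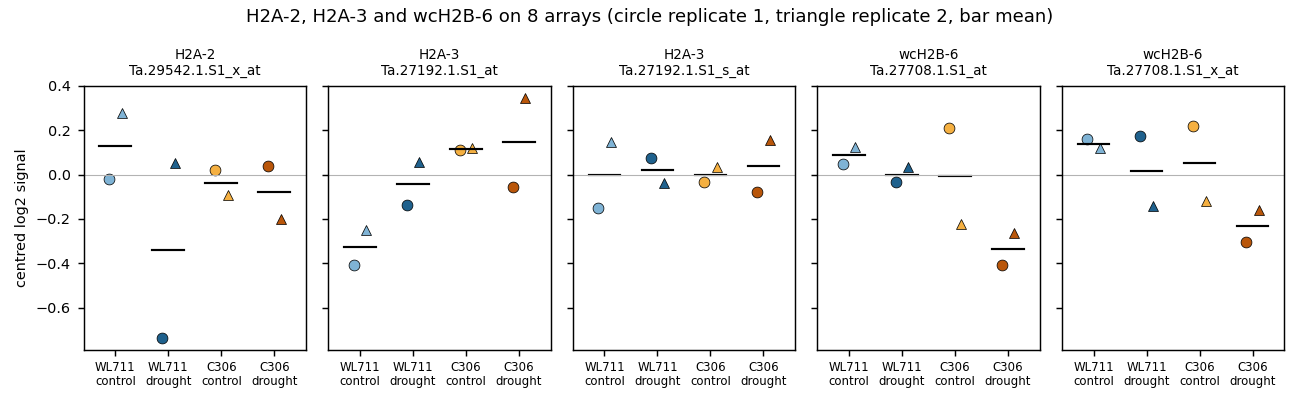
Centred log2 signal (vertical axis) of the 5 probe sets of H2A-2, H2A-3 and wcH2B-6 on the 8 arrays, by group (horizontal axis). Circles are replicate 1, triangles replicate 2 and bars the mean of 2 arrays. The lowest point, at -0.73, is WL711 drought replicate 1 of H2A-2, and both wcH2B-6 panels have C306 drought lowest.

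Over the family, 2 of the 18 (11.1%) were called lower in watered C306, against 11.0% of all probe sets in either direction and 4.31% as lower (limma). Under drought 2 of 18 (11.1%) passed, again lower, against 6.73% in either direction and 2.53% as lower. At an unadjusted p under 0.05 there were 7 under control watering (38.9%, against 28.8% of all probe sets), 3 higher and 4 lower, and 5 under drought (27.8%, against 21.5%), all lower, as 11.2% of all probe sets were. The 2 under control watering were of wcH2B-8 and the 2 under drought of H2A-9, and each couple shares a sequence entry. Arrays of C306 lay wholly below those of WL711 for 6 of 18 under control watering, against 33.1% of all probe sets, and wholly above for 5, against 22.9%. Under drought they lay below for 12, against 35.2%, and above for 0, against 23.6%.

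Averaged over both waterings, 5 of 18 (27.8%) passed as lower in C306, against 19.0% of all probe sets in either direction and 8.90% as lower (limma). Of the 5, 4 were wcH2B-8 probe sets. Ta.7378.1.S1_x_at stood at -0.63 (SE 0.11, limma adjusted p = 0.00615), Ta.7378.35.S1_x_at at -0.64 (SE 0.13, limma adjusted p = 0.0119), Ta.7378.1.S1_at at -0.60 (SE 0.13, limma adjusted p = 0.0150) and Ta.7378.18.S1_at at -0.56 (SE 0.15, limma adjusted p = 0.0375). The other was Ta.27657.14.S1_s_at of H2A-9 at -0.70 (SE 0.19, limma adjusted p = 0.0324), whose difference lay under drought at -1.41 and was 0.016 under control watering. At an unadjusted p under 0.05 there were 7 of 18 (38.9%, against 35.3% of all probe sets), these 5 lower and 2 higher. The higher ones were Ta.27657.6.S1_x_at, the highest of H2A-9 at 0.50 (SE 0.21, limma adjusted p = 0.127), and Ta.27192.1.S1_at of H2A-3 at 0.31 (SE 0.12, limma adjusted p = 0.107). The highest of wcH2B-8 was Ta.7378.18.S1_x_at at -0.15. H2A-2 stood at 0.048, Ta.27192.1.S1_s_at of H2A-3 at 0.0099, and wcH2B-6 at -0.21 (Ta.27708.1.S1_at) and -0.17 (Ta.27708.1.S1_x_at). All 4 C306 arrays lay below all 4 WL711 arrays for 5 of the 18 (27.8%), all of wcH2B-8, against 13.2% of all probe sets.

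Several of these calls were lost without a single array. Under control watering the count of 2 became 0 when WL711 control replicate 1 or C306 control replicate 1 was left out, 1 without C306 control replicate 2 and 3 without WL711 control replicate 2, all lower. It was also 3 without C306 drought replicate 1 or C306 drought replicate 2, when Ta.27657.6.S1_x_at of H2A-9 was called higher beside the 2 lower (log2 difference 0.86, limma adjusted p = 0.0442 in both). Under drought it became 0 when either WL711 drought array or C306 drought replicate 1 was left out, and 1 without C306 drought replicate 2. For the average over both waterings the count of 5 became 3 without WL711 drought replicate 1 or C306 control replicate 1, and 2 without WL711 drought replicate 2. Without C306 drought replicate 1 a single lower call was left, and Ta.27657.6.S1_x_at was called higher (log2 difference 0.74, limma adjusted p = 0.0304). Ta.7378.1.S1_x_at kept its call for that average in all 14 alternatives run.

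**Figure D5:**
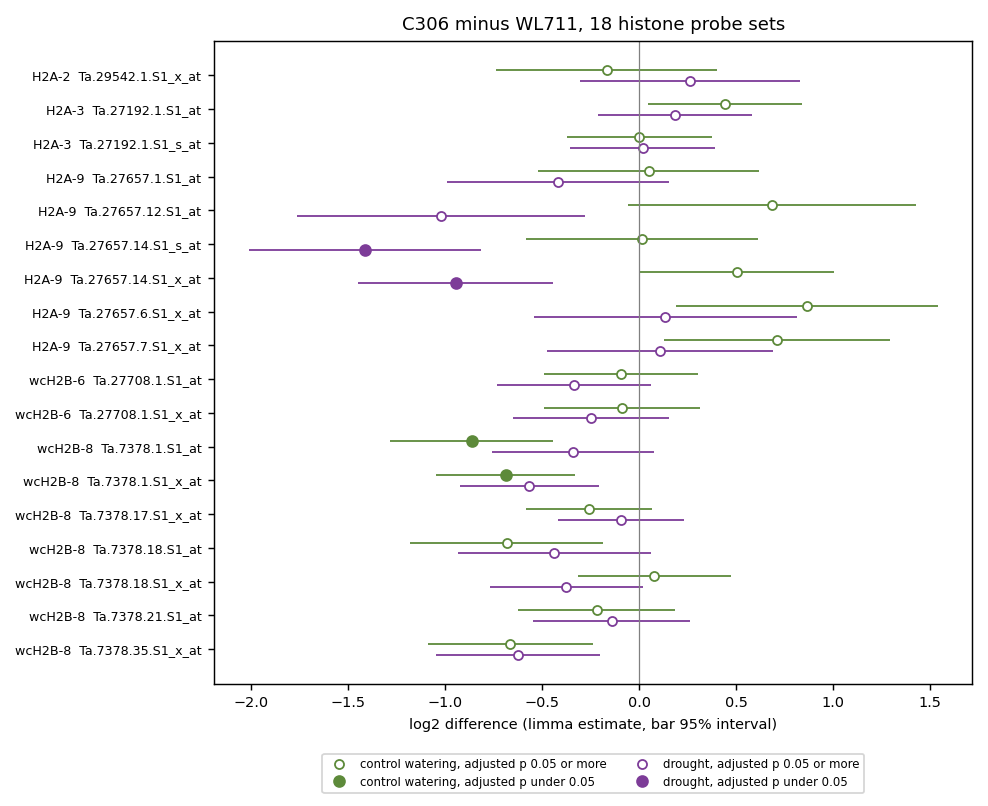
Log2 difference, C306 minus WL711 (horizontal axis), for each of the 18 histone probe sets (rows) under control watering and under drought. Points are limma estimates, bars their 95% intervals, and filled points have an adjusted p under 0.05. The filled points are 2 of wcH2B-8 under control watering and 2 of H2A-9 under drought, all left of 0.

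The members also differed in how much they varied over the 8 arrays. The range from the lowest to the highest array had a median of 0.983 over the 18, against 0.694 over all probe sets. It was largest for Ta.27657.14.S1_s_at at 1.70, at the 93.2nd percentile of all probe sets, and smallest for Ta.27192.1.S1_s_at of H2A-3 at 0.305, at the 4.43rd. Residual SD within groups had a median of 0.190 over the members and 0.178 over all probe sets.

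Other genes of chromatin, DNA replication and the cell cycle were searched by symbol and synonym among the remaining 766 annotated genes, of which 669 carry only a number as a name and so could not be found this way. The search found 1, Hmgb3, which encodes a high mobility group protein that binds and bends DNA. Neither of its 2 probe sets passed in any comparison. Ta.30768.1.S1_x_at stood at 0.20 in WL711 and 0.0073 in C306 for drought, and at 0.48 (SE 0.17, limma adjusted p = 0.0993) and 0.29 for C306 minus WL711 under control watering and drought. Ta.30768.3.S1_x_at stood at 0.064, 0.045, 0.30 and 0.28 in the same order. A marker list of dividing cells could thus not be set beside the histones. The leaf mesophyll markers matched 3 genes (rbcL, PsbO and PsbP) with 31 probe sets, whose median drought difference was -0.20 in WL711 and -0.12 in C306, with 0 passed in either (limma). Between the cultivars 6 of the 31 were called lower in C306 under control watering (median over the 31 -0.30), against 4.31% of all probe sets. Under drought 1 was called lower (median over the 31 -0.26, against 2.53% of all probe sets). For the average over both waterings 11 were called lower (median -0.26, against 8.90%), and none was called higher in any of these (limma). Of the 31, 28 belong to rbcL, and the 31 differences under control watering ran from -1.61 to 0.48. The part of these markers in the histone values was not tested.

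Likeness of pattern was described by Pearson's r over the 8 arrays between the mean of a histone gene's probe sets and 1 probe set of each of the 766 other annotated genes. The arrays fall apart by cultivar, so a high r can reflect cultivar alone. The genes named are also the highest of 766 over only 8 arrays, a search that finds high r among unrelated genes too. The values are given with no test. The closest to wcH2B-8 were LOC543256 (r = 0.959), the granule-bound starch synthase gene GBSS-I (r = 0.958) and LOC543352 (r = 0.956). The closest to wcH2B-6 were LOC100037528 (r = 0.939), LOC542914 (r = 0.926) and TaRAFTIN1a (r = 0.924). H2A-9 was most like LOC543060 (r = 0.878), LOC543186 (r = 0.870) and LOC542889 (r = 0.827). For H2A-3 they were LOC543014, LOC543456 and LOC100037598 (r = 0.830 to 0.864), and for H2A-2 they were LOC543297, LOC543409 and LOC542976 (r = 0.802 to 0.824). By rank, Spearman's rho for the genes named here ran from 0.571 (LOC543409 with H2A-2) to 0.976 (LOC543352 with wcH2B-8).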

How the data were processed

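Leaf RNA of 8 samples was measured on Affymetrix arrays. The deposited values are log2 signals from RMA, per the submitters' processing notes, which name no version. The largest absolute median of a probe set over the 8 arrays was 5e-07, so the values had also been centred per probe set. Centring cancels in differences between arrays. No raw intensities were used.

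After removal of 111 Affymetrix control probe sets, 61179 were fitted with limma 3.58.1 in R 4.3.3: 4 group means over all 8 arrays, contrasts, and eBayes without trend (4 residual and 4.63 prior degrees of freedom, two-sided). The procedure was run on simulated data as a check of the code, and no rate of recovery at the sizes seen here is given. Adjusted p is Benjamini-Hochberg over all probe sets, and 0.05 was the threshold. SE is limma's moderated standard error. The 7 comparisons share arrays and are not independent. Gene names came from the platform annotation, with synonyms from the IWGSC CS RefSeq v2.1 gene table.

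The rule named every member past the threshold, and per gene the highest and lowest in each comparison. Members, lists and tests were chosen with earlier results of these data known. The alternatives were a replicate block, arrays shifted to one median, repeated quantile normalization, robust eBayes, array weights, removal of _x_at, _s_at and _a_at probe sets, a block for the arrays with hybridisation controls below -0.5, the 4 arrays compared alone, and each array left out.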

Additional observations from a re-analysis of the deposited data

Results flagged for a closer look

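In 2 of the 6 H2A-9 probe sets both droughted arrays lay above both watered arrays in WL711 and below them in C306, a pattern held by 4.35% of all probe sets. The difference of the drought effects, C306 minus WL711, was -1.71 for Ta.27657.12.S1_at and -1.45 for Ta.27657.14.S1_x_at (log2). The test of that difference gave limma adjusted p of 0.269 and 0.185, so neither passed. Over the alternatives they ran from -2.14 to -1.27 and from -1.72 to -1.17, with adjusted p from 0.106 to 0.589 and from 0.0839 to 0.522. Of the arrays with low hybridisation controls, WL711 control replicate 1 and C306 drought replicate 1 read below their partner in both probe sets, and C306 control replicate 2 read below its partner in the first and above it in the second. With a block for such arrays the differences were -1.37 and -1.39. The part of array quality in the pattern was otherwise not tested.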

How the results depend on the processing

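No histone probe set passed under any alternative in either drought comparison, in the difference of the drought effects or in the mean drought effect (limma), and no histone difference with an unadjusted p under 0.05 changed sign. For C306 against WL711 under control watering 2 passed, where 11.0% of all probe sets did. Repeated quantile normalization, run on the centred values and not on intensities, left 1 (7.93% of all probe sets). Removal of _x_at, _s_at and _a_at probe sets also left 1 (9.8%). Array weights left 0 (5.75%), and so did a fit on the 4 arrays compared (4.85%). The weights were equal within each group, from 0.57 on both watered WL711 arrays to 1.52 on both droughted C306 arrays. They thus could not set 1 array of a pair below the other. Under drought 2 passed, where 6.73% of all probe sets did. Repeated quantile normalization gave 4 (8.98% of all probe sets) and array weights gave 4 (11.5%). Removal of the suffixed probe sets gave 0 (6.07%), and the block for low hybridisation controls gave 1 (4.05%). For the average over both waterings 5 passed, where 19.0% of all probe sets did. There 2 passed without the suffixed probe sets (17.3% of all probe sets) and 3 with that block (14.9%). Leaving out 1 array lost calls in each of these comparisons, and the differences in those fits are given above. A lone array was then assumed to vary like the other groups. With the replicate number as a block the 3 counts were 2, 2 and 5, as without it (9.64%, 6.56% and 17.2% of all probe sets). Same-numbered arrays did not deviate together (r of deviations from -0.093 to 0.11 over 6 pairs of groups), so the numbers were not taken as pairs. Fewer probe sets are tested, and fewer members remain, without the suffixed ones. The cause of the other changes was not tested. With 2 arrays a group and centred values, brightness over background could not be assessed.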

Other observations

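The identifiers of another 39 probe sets, not named by the annotation, share a cluster number with H2A-9 (Ta.27657, 8 probe sets) or wcH2B-8 (Ta.7378, 31 probe sets). They were looked at after the members' values were seen, so no test is given. The 8 beside H2A-9 differed less in droughted C306 than its 6 members did: their drought minus control values ran from -0.40 to 0.21, with a median of -0.12. In WL711, where all 6 members were above 0, 6 of these 8 were below 0 (median -0.18). Their difference of the drought effects, C306 minus WL711, was above 0 for 4 and below 0 for 4 (median 0.049), while it was below 0 for all 6 members.

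The 31 beside wcH2B-8 spread widely between cultivars, from -3.38 to 1.29 under control watering (C306 minus WL711, log2), with 15 above 0 and 16 below. At the low end, Ta.7378.6.S1_at read 1.28 and 1.84 in watered and 1.32 and 1.44 in droughted WL711, and -2.06 and -1.58 in watered and -1.28 and -1.65 in droughted C306. At the high end, Ta.7378.4.S1_at read -0.81 and -0.76 in watered WL711 and 0.91 and 0.098 in watered C306. Ta.7378.33.A1_x_at was highest in watered C306, at 1.21 and 0.70, against -0.24 to 0.34 on the other 6 arrays. For drought minus control in C306, 25 of the 31 were below 0, with a median of -0.20, where 33244 of all 61179 probe sets were below 0.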
